A study of Rattus norvegicus with 2 samples.

Results

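The genes of the proteasome were described in what remains of the rat liver after surgeons cut part of it away (partial hepatectomy, PH). They were the genes whose symbol on the array platform begins with Psm, a letter from a to g and a number, without the immunoproteasome genes Psmb8, Psmb9 and Psmb10. The rule found 43 of 14217 named genes, and where a gene had several probe sets, the one with the highest mean log2 signal stood for it. Of the 43, 13 encode subunits of the core particle, 17 encode subunits of the regulatory particle, and 11 encode assembly factors, activators or an inhibitor. The remaining pair, Psmc3ip and Psme3ip1, is matched by spelling only: Psmc3ip encodes a factor of meiotic recombination, and Psme3ip1 a protein that binds the activator encoded by Psme3. Psmb6 and Psme3 were not among the 43, because their probe sets list further genes.

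Livers labelled 2/3PH, with the larger resection, were set against livers labelled 1/3PH, both sampled at 24 h. RNA of 3 rats was pooled per group and each pool was read on 1 Affymetrix array, so 6 rats gave 2 measurements and no difference has a replicate check, a test or a p-value. The labels used here state no strain, sex or age of the rats, and neither group was an unoperated or sham-operated liver. Typical signals were close, with log2 medians of 6.53 (2/3PH) and 6.48 (1/3PH). The remnant holds all cells of the liver, so fewer cells of a type and less RNA per cell cannot be told apart.

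The proteasome is the protease that degrades proteins tagged with ubiquitin. Its barrel-shaped core particle, or 20S particle, stacks rings of alpha subunits, which form the gate, on rings of beta subunits, among which those encoded by Psmb5, Psmb6 and Psmb7 carry the active sites. The regulatory particle, or 19S particle, caps the barrel: its base holds a ring of ATPases that unfolds substrates and its lid removes ubiquitin. Together they form the 26S proteasome, which breaks down cyclins and other cell cycle proteins. In vertebrates, transcription factors of the Nrf family, encoded by Nfe2l1 and Nfe2l2, can raise proteasome genes through antioxidant response elements.

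The 4 promoters shown belong to the subunits at both ends of the order of ratios, Psma1 and Psmc4 with the highest and Psmd4 and Psmd8 with the lowest log2 ratios among the 30 subunits of the 26S particle. Each runs from 250 bases before to 50 bases after the gene's start, on the gene's strand, in RefSeq's GRCr8 assembly. Capitals mark the CCAAT box, searched as CCAAT on both strands. The antioxidant response element core, TGACNNNGC, was searched on both strands too and is in none of the 4.
Psma1, chr1:177887808-177888107, minus strand: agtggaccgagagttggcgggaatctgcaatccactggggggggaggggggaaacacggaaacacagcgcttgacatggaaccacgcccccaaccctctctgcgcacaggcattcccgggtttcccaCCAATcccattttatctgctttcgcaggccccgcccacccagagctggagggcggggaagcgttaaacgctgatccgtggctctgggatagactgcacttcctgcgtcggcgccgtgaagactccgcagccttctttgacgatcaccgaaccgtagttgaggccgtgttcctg
Psmc4, chr1:92485011-92485310, minus strand: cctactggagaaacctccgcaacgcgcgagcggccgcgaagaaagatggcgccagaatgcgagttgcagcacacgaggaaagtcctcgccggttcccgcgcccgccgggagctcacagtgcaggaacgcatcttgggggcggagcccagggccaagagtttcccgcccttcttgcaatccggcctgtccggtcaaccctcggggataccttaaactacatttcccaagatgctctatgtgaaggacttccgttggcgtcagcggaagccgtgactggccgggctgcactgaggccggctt
Psmd4, chr2:185297152-185297451, minus strand: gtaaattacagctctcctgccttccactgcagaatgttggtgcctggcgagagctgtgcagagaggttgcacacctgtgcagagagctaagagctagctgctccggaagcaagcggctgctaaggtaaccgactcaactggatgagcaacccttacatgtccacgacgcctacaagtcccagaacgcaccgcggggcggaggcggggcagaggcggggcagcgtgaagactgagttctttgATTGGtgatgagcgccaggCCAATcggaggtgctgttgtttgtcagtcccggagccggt
Psmd8, chr1:93608640-93608939, minus strand: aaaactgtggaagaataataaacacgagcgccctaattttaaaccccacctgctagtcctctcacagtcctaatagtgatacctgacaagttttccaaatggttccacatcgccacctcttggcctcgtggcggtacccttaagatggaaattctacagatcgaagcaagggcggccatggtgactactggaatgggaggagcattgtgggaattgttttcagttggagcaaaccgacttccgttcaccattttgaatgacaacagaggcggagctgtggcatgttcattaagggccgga
The Psma1 promoter holds 1 CCAAT box whose first base lies 123 bases before the start. The Psmd4 promoter holds 2, on opposite strands, with first bases 9 bases before the start and at position 11 after it. The Psmc4 and Psmd8 promoters hold none, so neither end of the order is set apart by these letters.

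All 30 subunits of the 26S proteasome had a higher signal after 2/3PH than after 1/3PH, by small amounts. Their log2 ratios, 2/3PH minus 1/3PH, ran from 0.03 to 0.97 with a median of 0.25, a 1.19-fold difference. Over all 9514 genes above a floor at the median signal of the arrays (a signal of 89.2), 52.9% had a ratio above 0 and the median was 0.03. A gene was called at a difference of 2-fold, and none of the 30 subunits reached it, where 6.12% of all genes were higher and 3.68% lower by that much. Psma1, the nearest, passed it under 4 other scalings, with log2 ratios of 1.05 after loess, 1.06 after quantile normalization, 1.20 with the hybridisation controls and 1.41 with the poly-A controls. With the poly-A controls 4 of the 30 passed it, the others being Psmc4 at 1.04, Psmd12 at 1.03 and Psmd13 at 1.02. Both control scalings shift all genes alike, to all-gene medians of 0.27 (hybridisation) and 0.48 (poly-A). The share of all genes past 2-fold under them was not counted. At a limit of 1.5-fold on the deposited scale, 3 of the 30 were higher, as were 15.8% of all genes.

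The ratios of the 30 subunits were close together. Their SD was 0.20, where the SD over all genes above the floor was 0.66. Over the 5729 genes that reach a floor at the 75th percentile of signal, as all 30 subunits do, the SD was 0.63. The spread between probe sets of 1 gene on these arrays, taken from 2067 genes, gave an SD of 0.31 for a single log2 ratio, and 0.23 over genes at the higher floor. It holds the difference between probes, not that between rats. By that measure of error, 13 of the 30 subunits had a ratio above 1 SD of 0.31, as had 29.5% of all genes, and the rest lay within it. Psma7, Psmb3, Psmb5 and Psmc2 lay within 0.31 but above the 0.23 of the higher floor.

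**Figure D1:**
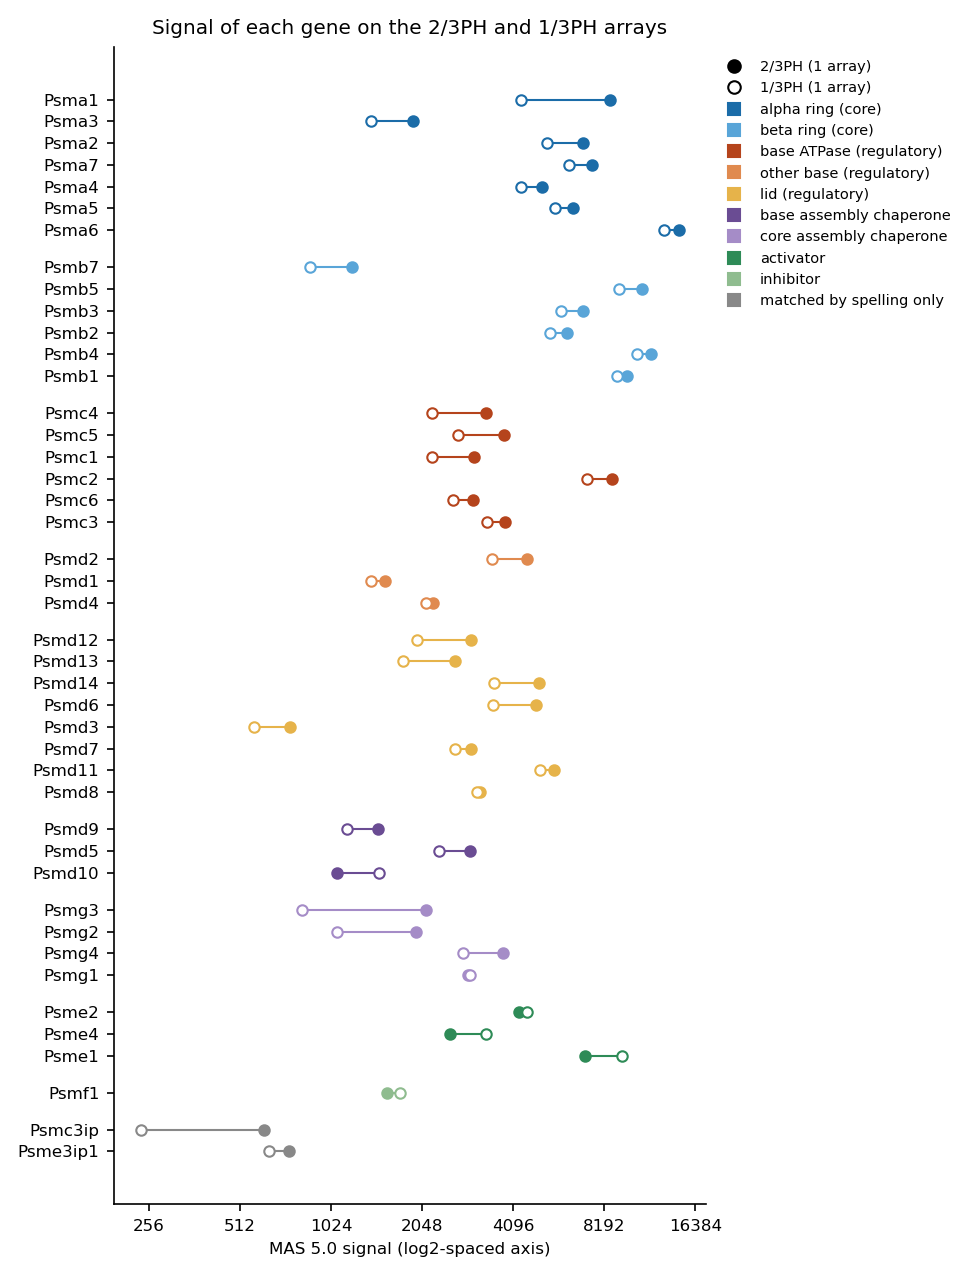
MAS 5.0 signal of each of the 43 genes on a log2-spaced axis, with filled circles for the 2/3PH array and open circles for the 1/3PH array, coloured by role. The filled circle lies to the right of the open one for all 30 subunits of the core and regulatory particles, and to the left for Psmd10, Psmg1, Psme1, Psme2, Psme4 and Psmf1.

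The alpha ring of the core particle had a median log2 ratio of 0.25 over its 7 genes. Psma1 read 8533 after 2/3PH and 4359 after 1/3PH, 1.96-fold higher, the highest ratio of the core and of the 26S subunits. Its ratio of 0.97 exceeded that of 93.5% of all genes above the floor. Psma3 had signals of 1905 after 2/3PH and 1385 after 1/3PH, 1.38-fold higher. Psma2 had signals of 6967 after 2/3PH and 5279 after 1/3PH, 1.32-fold higher. These 3 genes had the highest ratios of the ring.

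The other 4 alpha genes differed by less than the SD of 0.31 between probe sets, though Psma7 exceeded the 0.23 of the higher floor. Psma7 had signals of 7434 after 2/3PH and 6253 after 1/3PH, a ratio of 0.25. Psma4 had signals of 5096 after 2/3PH and 4343 after 1/3PH, a ratio of 0.23; the tail of its product closes the gate in yeast. Psma5 had signals of 6447 after 2/3PH and 5648 after 1/3PH, a ratio of 0.19. The lowest of the ring was Psma6, at 14492 after 2/3PH and 12904 after 1/3PH, a ratio of 0.17. Subunits of this ring stand in equal numbers in the particle, whereas their log2 ratios spanned 0.17 to 0.97, and without Psma1 the highest core ratio was 0.46. A second probe set that the platform gives to Psma3 and Psma3l together read 11457 after 2/3PH and 10182 after 1/3PH, a ratio of 0.17.

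The beta ring had a median log2 ratio of 0.21 over 6 genes, none of which reached 1.5-fold on the deposited scale. Psmb7, whose product carries the trypsin-like activity, had signals of 1201 after 2/3PH and 871 after 1/3PH, 1.38-fold higher. Psmb5, whose product carries the chymotrypsin-like activity, had signals of 10949 after 2/3PH and 9191 after 1/3PH, 1.19-fold higher. The third active site belongs to Psmb6, and the 1 probe set that lists it together with Psmb6l1 read 5160 after 2/3PH and 3955 after 1/3PH, 1.30-fold higher. These 3 readings were higher after 2/3PH, by less than 1.5-fold on the deposited scale. Scaled to the hybridisation controls, Psmb7 was at 0.70, and scaled to the poly-A controls, Psmb5 was at 0.69 and Psmb7 at 0.90, all past 1.5-fold. Both control scalings shift all genes alike, to all-gene medians of 0.27 (hybridisation) and 0.48 (poly-A). The share of all genes past 1.5-fold under them was not counted. The 2 further probe sets of Psmb5 lay under the floor and were not read.

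The beta subunits without an active site were nearer to 0, though Psmb3 at 0.24 lay close to Psmb5 at 0.25. Psmb3 had signals of 6944 after 2/3PH and 5874 after 1/3PH, a ratio of 0.24. Psmb2 had signals of 6179 after 2/3PH and 5431 after 1/3PH, a ratio of 0.19. Psmb4 followed with 11671 after 2/3PH and 10494 after 1/3PH, a ratio of 0.15. Psmb1 had the lowest ratio of the core, 0.12, with signals of 9758 after 2/3PH and 9004 after 1/3PH. These 4 ratios lay within the SD of 0.31 between probe sets, though Psmb3 exceeded the 0.23 of the higher floor. Scaled to the poly-A controls, Psmb3 at 0.68, Psmb2 at 0.63 and Psmb4 at 0.60 were past 1.5-fold too, and Psmb1 at 0.56 was not. That scaling put the median of all genes at 0.48, and the share of all genes past 1.5-fold was not counted.

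The ATPases of the base had a median log2 ratio of 0.37 over 6 genes, each higher after 2/3PH. Psmc4 had signals of 3337 after 2/3PH and 2206 after 1/3PH, 1.51-fold higher, and was the 1 base gene past 1.5-fold. Psmc5, whose product is the neighbour of the Psmc4 product in the assembling ring, had 3826 after 2/3PH and 2682 after 1/3PH, 1.43-fold higher. Psmc1 had 3040 after 2/3PH and 2207 after 1/3PH, 1.38-fold higher. Its partner Psmc2 had 8701 after 2/3PH and 7173 after 1/3PH, 1.21-fold higher. Psmc3 had 3844 after 2/3PH and 3365 after 1/3PH, 1.14-fold higher, and its partner Psmc6 had 3025 after 2/3PH and 2599 after 1/3PH, 1.16-fold higher. In the order of the ratios, the Psmc4 and Psmc5 pair stood at the top and the Psmc3 and Psmc6 pair at the bottom. The SD of these 6 ratios, 0.17, was below the 0.23 between probe sets at the higher floor. Psmc6 had further probe sets at 0.33 and 0.53, so its place in that order depends on the probe set read.

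The other base subunits had log2 ratios of 0.08 to 0.38. Psmd2, a scaffold that docks shuttle factors and ubiquitin-like domains, had 4553 after 2/3PH and 3493 after 1/3PH, 1.30-fold higher. Psmd1, the large scaffold that anchors the ubiquitin receptor Adrm1, had 1540 after 2/3PH and 1386 after 1/3PH, 1.11-fold higher. Psmd4, itself a ubiquitin receptor, had 2221 after 2/3PH and 2104 after 1/3PH, 1.06-fold higher. The Psmd1 and Psmd4 ratios lay within the SD between probe sets.

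The lid had the highest median of the 4 blocks of the 26S particle that hold over 3 genes, 0.44 over 8 genes, on the deposited scale. With quantile normalization the base ATPases were higher, at 0.45 against 0.43 for the lid, and with loess both were at 0.43. Psmd12, a scaffold of the lid, had signals of 2962 after 2/3PH and 1967 after 1/3PH, 1.51-fold higher. Psmd13 had 2638 after 2/3PH and 1770 after 1/3PH, 1.49-fold higher. Psmd14, the metalloprotease that cuts ubiquitin chains off substrates, had 4995 after 2/3PH and 3537 after 1/3PH, 1.41-fold higher. Its further probe sets read 1.54-fold and 2.04-fold higher, so all 3 gave the same direction and the size depended on the probe set. Psmd6 had 4866 after 2/3PH and 3500 after 1/3PH, 1.39-fold higher. Psmd3 had 749 after 2/3PH and 568 after 1/3PH, 1.32-fold higher.

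The other 3 lid genes differed little. Psmd7, the inactive partner of the Psmd14 product, had signals of 2961 after 2/3PH and 2626 after 1/3PH, a ratio of 0.17. Psmd11 had 5569 after 2/3PH and 5025 after 1/3PH, a ratio of 0.15, and a further probe set of it had a ratio of -0.10. Psmd8 had 3179 after 2/3PH and 3109 after 1/3PH, a ratio of 0.03. The lid thus divided into 5 genes between 0.40 and 0.59 and 3 genes between 0.03 and 0.17, with no gene between those ranges on the deposited scale. With quantile normalization that gap was filled, with Psmd11 at 0.25 and Psmd3 at 0.31. The SD of the lid ratios on the deposited scale, 0.21, was below the 0.23 between probe sets at the higher floor. Psmd8 and the further probe set of Psmd11 are the readings on which "all 30 higher" rests most thinly: with each array centred on its median, Psmd8 was at -0.02 and 29 of 30 were above 0.

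**Figure D2:**
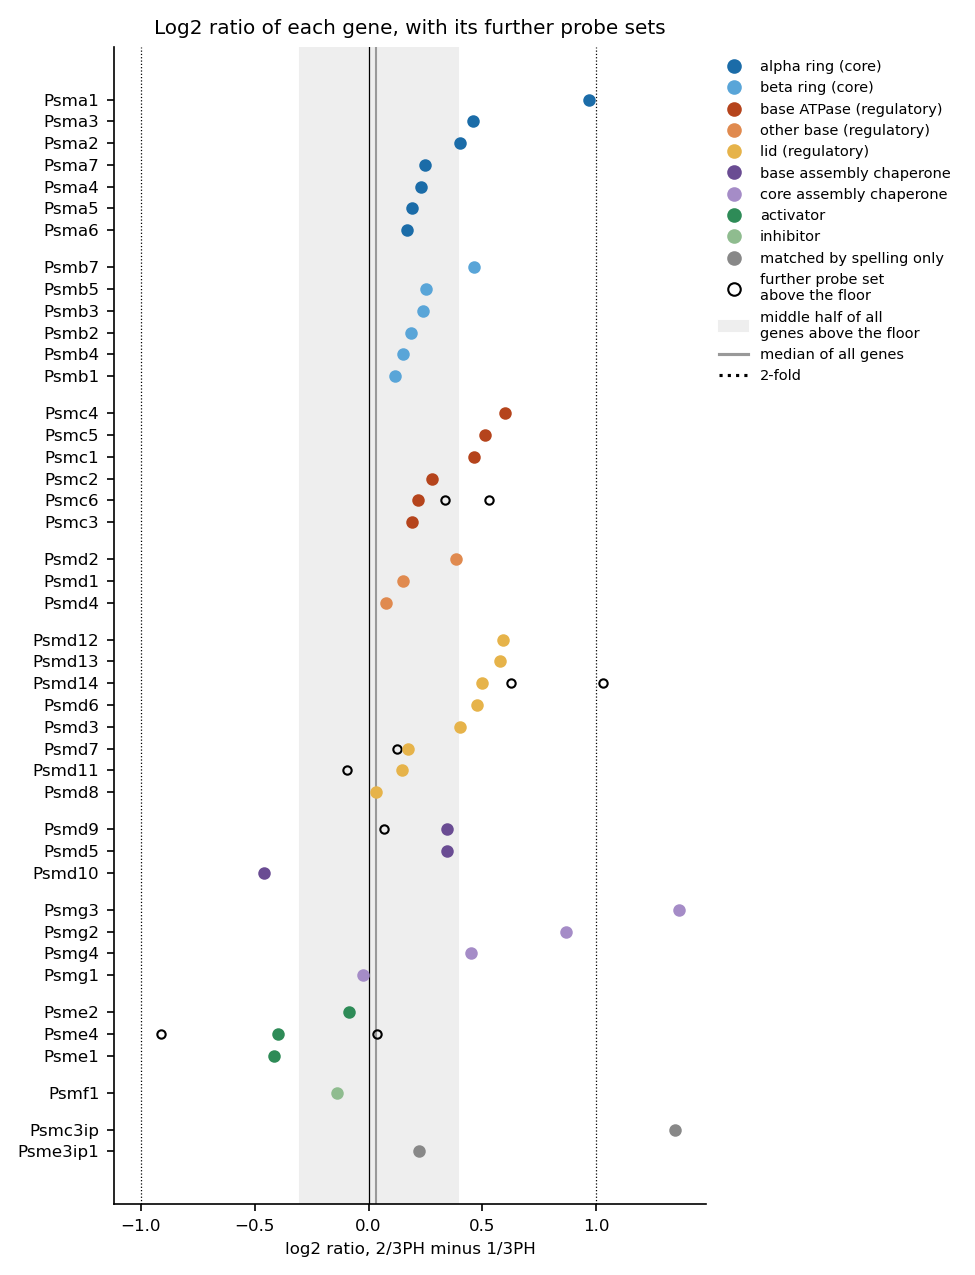
Log2 ratio, 2/3PH minus 1/3PH, of each gene, coloured by role, with open circles for its further probe sets above the floor. The grey band runs from the lower to the upper quartile of all 9514 genes above the floor. The grey line is their median of 0.03 and the dotted lines mark 2-fold. The filled circles of the core and regulatory subunits sit between 0.03 and 0.97 (Psmd8 at -0.02 with median centring). Further probe sets of Psmd11 at -0.10 and of Psmd14 at 1.03, past 2-fold, lie outside that range. Among the filled circles, Psmg3 and Psmc3ip lie past 2-fold.

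Core and regulatory particle overlapped. The core had a median log2 ratio of 0.24 over 13 genes, with a range of 0.12 to 0.97, and the regulatory particle a median of 0.38 over 17 genes, with a range of 0.03 to 0.60. The medians differed by -0.14, core minus regulatory, while the means, 0.31 for the core and 0.34 for the regulatory particle, differed by -0.03. The SD between genes was 0.23 within the core and 0.19 within the regulatory particle. The signals of the core genes summed to 97576 after 2/3PH and 81037 after 1/3PH, 1.20-fold higher, and those of the regulatory genes to 62007 after 2/3PH and 49317 after 1/3PH, 1.26-fold higher. With quantile normalization or a loess trend removed, the difference of the medians shrank to -0.05.

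How far the subunits lay above 0 depended on the scale. Scaling to the hybridisation controls put the median of all genes at 0.27 and that of the 30 subunits at 0.49. Scaling to the poly-A controls, which were added to the RNA before labelling, put the median of all genes at 0.48 and that of the subunits at 0.69. The subunit median minus the median of all genes was 0.22 as deposited, which median centring and the control scalings cannot alter, since they shift all genes alike. It was 0.38 with quantile normalization and 0.32 with the loess trend removed.

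**Figure D3:**
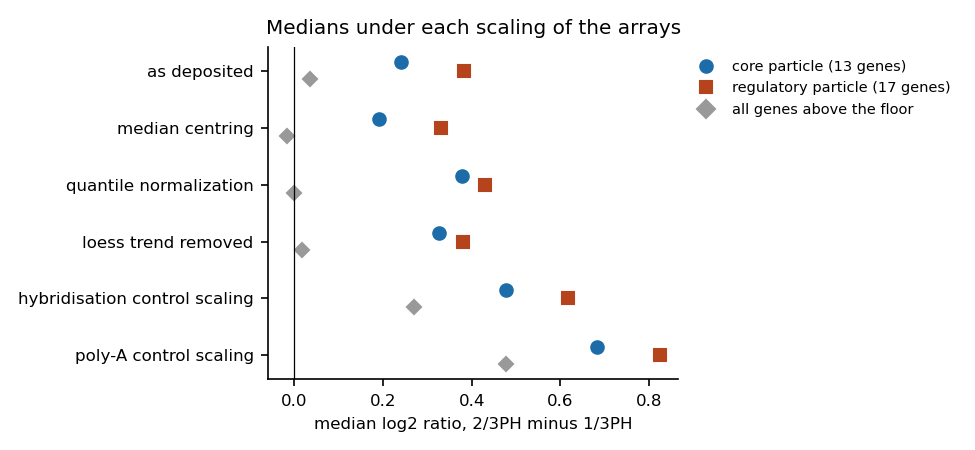
Median log2 ratio, 2/3PH minus 1/3PH, of the core particle, the regulatory particle and all genes above the floor under 6 scalings of the 2 arrays. In all 6 the all-gene median lies lowest and the regulatory particle highest, and core and regulatory particle lie closest, 0.05 apart, with quantile normalization and with the loess trend removed. Median centring and the control scalings shift all genes alike, so only quantile normalization and loess could change this order.

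The assembly chaperones of the core particle ranged more widely than the subunits they assemble. Psmg1 and Psmg2 encode partners of 1 heterodimer, and Psmg3 and Psmg4 partners of another, both of which guide the alpha ring. Psmg3 had signals of 2106 after 2/3PH and 818 after 1/3PH, 2.58-fold higher, the 1 proteasome gene past 2-fold as deposited. Its partner Psmg4 had 3804 after 2/3PH and 2785 after 1/3PH, 1.37-fold higher. Psmg2 had 1956 after 2/3PH and 1074 after 1/3PH, 1.82-fold higher, whereas its partner Psmg1 had 2897 after 2/3PH and 2946 after 1/3PH, a ratio of -0.02 that is above 0 under both control scalings. The partners thus differed by 0.91 (Psmg3 and Psmg4) and 0.89 (Psmg2 and Psmg1) on the log2 ratio scale. Each gap was more than the SD of 0.31 between probe sets, which is for a single ratio, while a gap holds the error of both its ratios. Each of the 4 genes has 1 probe set, so no second reading exists.

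The chaperones of the base were split as well. Psmd10 (gankyrin), which holds the Psmc4 and Psmc5 products during assembly, had 1071 after 2/3PH and 1472 after 1/3PH, a ratio of -0.46, or 1.37-fold lower, and -0.02 with poly-A control scaling. Its clients Psmc4 and Psmc5 were 1.51-fold and 1.43-fold higher. Psmd5, which holds the Psmc1 and Psmc2 products, had 2947 after 2/3PH and 2321 after 1/3PH, 1.27-fold higher. Psmd9, which holds the Psmc3 and Psmc6 products, had 1469 after 2/3PH and 1156 after 1/3PH, also 1.27-fold higher, and a further probe set of it was at 0.07. Psmd10 was the lowest of the 43 genes, and its log2 ratio minus that of its clients was -1.06 for Psmc4 and -0.97 for Psmc5.

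The activators and the inhibitor were below 0, unlike the 30 subunits. Psme1, which forms with Psme2 the ring-shaped activator PA28 that is inducible by interferon gamma, had 7053 after 2/3PH and 9400 after 1/3PH, a ratio of -0.41. Psme2 had 4281 after 2/3PH and 4540 after 1/3PH, a ratio of -0.08. Psme4, the activator PA200, had 2533 after 2/3PH and 3336 after 1/3PH, a ratio of -0.40. Its 2 further probe sets were at -0.91 and 0.04, so they do not share a direction. Psmf1, which encodes the inhibitor PI31, had 1570 after 2/3PH and 1729 after 1/3PH, a ratio of -0.14. With poly-A control scaling all 4 were above 0, Psme1 at 0.03 and Psme4 at 0.04, and with hybridisation control scaling Psme2 and Psmf1 were. The 4 probe sets that list Psme3, the nuclear activator, with 2 other genes had ratios of 0.38, 0.51, 0.65 and 0.92.

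Of the immunoproteasome subunits, which replace the active-site subunits after interferon signals, Psmb8 and Psmb9 were nearly level. Psmb8 had signals of 3337 after 2/3PH and 3277 after 1/3PH, a ratio of 0.03 that is below 0 with median centring. Psmb9 had 1876 after 2/3PH and 1969 after 1/3PH, a ratio of -0.07 that is above 0 under both control scalings. Psmb10 had 1622 after 2/3PH and 1401 after 1/3PH, a ratio of 0.21, close to the beta ring median of 0.21. The log2 ratio of Psmb8 minus that of Psmb5, which it replaces, was -0.23, and that of Psmb10 minus that of Psmb7 was -0.25. These gaps, like the ratios of the immunoproteasome genes themselves, were within the SD of 0.31 between probe sets. That SD is for a single ratio, and a gap holds the error of both its ratios.

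Markers of other cell types differed between the same arrays. All 5 measured macrophage and Kupffer cell markers were lower after 2/3PH, with a summed signal of 6261 after 2/3PH and 8280 after 1/3PH. Of 4 endothelial markers, Kdr, Stab2 and Vwf were lower and Pecam1 was level, with a log2 ratio of -0.003. The 4 summed to 3271 after 2/3PH and 6017 after 1/3PH. With both control scalings Cd163 and Pecam1 were above 0, and with poly-A scaling Clec4f too. Of 6 T and natural killer cell markers 5 lay under the floor, as did both measured B cell markers. The 4 stellate markers had sums of 852 after 2/3PH and 1645 after 1/3PH, with Lrat and Col1a1 lower, and Des and Acta2 (Acta2 under the floor) higher. The 5 measured hepatocyte markers, among them Alb and Ttr, had sums of 163281 after 2/3PH and 183843 after 1/3PH and the highest signals of any list, as the liver label requires. Their ratios of -0.23 to -0.05 were above 0 in 5 of 5 under both control scalings, in 3 of 5 with quantile normalization and in 4 of 5 with the loess trend removed. Proliferation markers were higher in 5 of 5, with sums of 15644 after 2/3PH and 1801 after 1/3PH. The part of cell composition or proliferation in the proteasome ratios was not tested.

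Genes that work with the proteasome but carry other symbols were mixed on the deposited scale. Of 8 measured partners, 5 were above 0, with a median log2 ratio of 0.07, where 52.9% of all genes were above 0. The count was 4 with median centring and 6 with quantile normalization or loess. It was 8 under both control scalings, which shift all genes alike. The highest were both deubiquitinases that bind the regulatory particle: Uchl5 had 3191 after 2/3PH and 1921 after 1/3PH, 1.66-fold higher, and Usp14 had 5481 after 2/3PH and 3657 after 1/3PH, a ratio of 0.58. Txnl1, a thioredoxin-like protein bound to the particle, followed at 0.10. The subunits that the rule misses because they carry other names were near 0. Sem1, a small lid subunit, had a ratio of 0.09, and Adrm1, a ubiquitin receptor of the base, had 226 after 2/3PH and 229 after 1/3PH, a ratio of -0.02 that is above 0 under both control scalings. With them counted, 31 of 32 genes of 26S subunits were above 0 on the deposited scale. The core maturation factor Pomp had a ratio of -0.08, which is above 0 under both control scalings, with quantile normalization and with loess.

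Upstream of the proteasome the differences were small. The ubiquitin-activating enzymes were both above 0, Uba1 at 1.26-fold higher and Uba6 at 1.15-fold higher. The shuttle factors, which carry tagged proteins, had 3 of 5 above 0 and a median of 0.18, with Ddi2 (-0.31, above 0 with poly-A control scaling) farthest from 0. Genes of the p97 complex, which extracts tagged proteins from membranes and assemblies, had 4 of 5 above 0 (3 with median centring) and a median of 0.06, with Ufd1 at 0.41.

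On the deposited scale, the transcription factors of the pathway went opposite ways. Nfe2l2 (Nrf2) had 5940 after 2/3PH and 3479 after 1/3PH, 1.71-fold higher. Nfe2l1 (Nrf1), the factor that raises proteasome genes when the proteasome is inhibited, had 411 after 2/3PH and 573 after 1/3PH, a ratio of -0.48. It was also below 0 under both control scalings, but close to 0 with the poly-A controls, where the median of all genes was 0.48. Known Nrf2 targets were divided, with Txnrd1 1.44-fold higher, Gclm at -0.65 and Nqo1 at -0.27. Nqo1 was above 0 with poly-A control scaling. The list of 8 regulators and targets had 3 above 0 and a median of -0.21, which became 0.02 when scaled to the hybridisation controls and 0.23 when scaled to the poly-A controls.

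Promoters were in the RefSeq table for 39 of the 43 genes. A match to the antioxidant response element core was in 5 of 26 subunits of the 26S particle (19.2%), in 12.1% of all 33469 promoters and in 14.6% of the 8825 promoters of genes above the floor. The 5 were Psma3, Psmb2, Psmb5, Psmd1 and Psmd3, with a median log2 ratio of 0.25, and the subunits without a match had a median of 0.23. A CCAAT box was in 14 of the 26 (53.8%), against 37.5% of all promoters and 38.2% of those above the floor. It was in 9 of 12 core promoters and 5 of 14 regulatory particle promoters. Subunits with and without it had the same median log2 ratio, 0.24, and within the particles the gaps were small and of opposite sign. Core genes with it had a median of 0.24 and those without it 0.17, while regulatory particle genes with it had a median of 0.19 and those without it 0.28. Both gaps rest on few genes and are smaller than the SD of 0.23 between probe sets for a single log2 ratio. A match is a run of letters, not a bound site.

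The ratios were set beside those of the COP9 signalosome and the chaperonin CCT, because the signalosome is built from relatives of the lid and CCT is another large complex of the protein cycle, the one that folds actin and tubulin. The COP9 signalosome had 8 of 9 genes above 0 (7 with median centring) and a median log2 ratio of 0.13, with a range of -0.43 (Cops7b, above 0 with poly-A scaling) to 0.39 (Cops7a). CCT had 8 of 8 above 0 and a median of 0.68, and 7 of its 8 genes were at least 1.5-fold higher. Over all genes above the floor, 52.9% had a ratio above 0 and 15.8% were at least 1.5-fold higher. The 26S subunits, at a median of 0.25, lay between the medians of these complexes. The lid, at 0.44, was above its relative the signalosome, with overlapping ranges. Every CCT gene except Tcp1, at 0.23, had a higher ratio than all 26S subunits except Psma1.

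**Figure D4:**
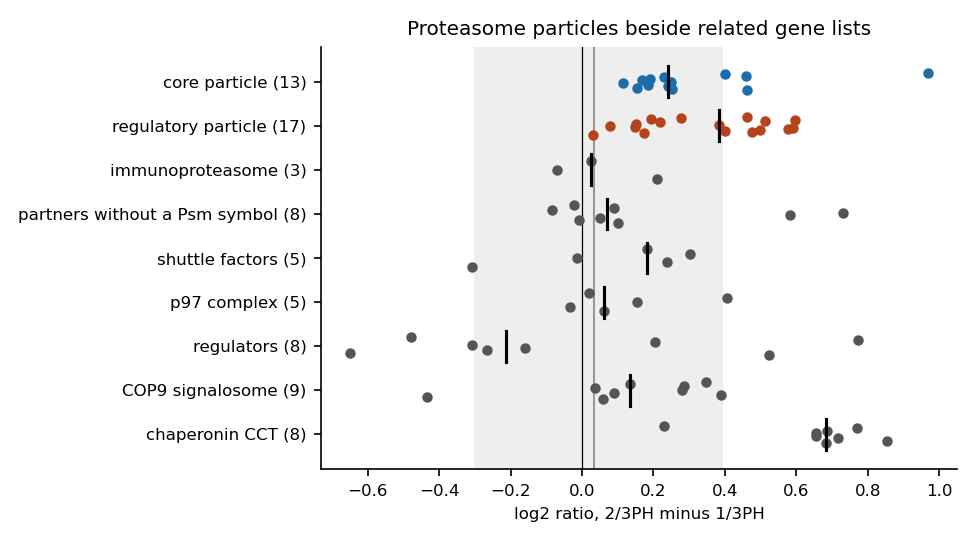
Log2 ratio, 2/3PH minus 1/3PH, of each gene above the floor in the core particle, the regulatory particle and 7 related lists, with the number of genes in brackets and a black bar at each median. The grey band runs from the lower to the upper quartile of all genes above the floor and the grey line is their median; the median of CCT is the highest at 0.68, and that of the regulators the lowest at -0.21, which is above 0 under both control scalings.

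The 2 genes that share only the spelling were not counted as proteasome genes. Psmc3ip had signals of 612 after 2/3PH and 241 after 1/3PH, 2.54-fold higher. Psme3ip1 had 743 after 2/3PH and 637 after 1/3PH, 1.17-fold higher. With the pair, 37 of 43 matches of the rule were above 0, 6 were past 1.5-fold and 2 of these past 2-fold, all higher. Over all genes 15.8% and 6.12% were higher by as much, so these counts are no more than the share of all genes. Without it, 35 of 41 were above 0, 5 were past 1.5-fold and 1 of these past 2-fold. The 6 below 0 were Psmd10, Psmg1, Psme1, Psme2, Psme4 and Psmf1, none of them a subunit of the 26S particle, and under poly-A control scaling Psmd10 was the 1 left below 0.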

How the data were processed

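The authors deposited log2 values of MAS 5.0 signal for 31099 probe sets on each of 2 arrays, per the labels' protocols. The log base was checked: read as powers of 2, both arrays have a mean signal of 500.0 without the top and bottom 2%. Per the labels' protocols, the authors used a 3' IVT Express kit, a Scanner 3000, Command Console 3.1 and GeneSpring 11.0. No detection calls were used. In their place stood a floor on the mean log2 signal, at the median of the 31042 probe sets that are not controls (6.48). All 43 genes reached it. The platform's annotation gave 20826 probe sets 1 symbol, 436 several and 9780 none. Symbols outside the rule were updated through Entrez identifiers to GRCr8.

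Log2 ratios were computed with Python 3.11.15 and pandas 2.3.3, and the procedure was tested on simulated data. With 1 array per group no test was possible, and precision is limited by the number of arrays. A gene was called at 2-fold. Every gene of the rule was described, and others by the largest ratio in their list, at most 3, with the immunoproteasome always given. Sem1, Adrm1, Pomp, Nfe2l1, Nqo1, Tcp1 and single cell type markers were named outside this rule after their values were seen, and signals are given for all 43 genes where the rule named up to 30. Scaling, floor, added units, probe set and membership were varied. The genes and lists were chosen with earlier results of these data known.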

Additional observations from a re-analysis of the deposited data

How the results depend on the processing

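With no replicates, a value was taken as moved where it shifted by over 0.31, the SD between probe sets of a gene, or a count by over 1.5 times. Hybridisation control scaling put 17 genes past 1.5-fold and 4 past 2-fold, all higher, where the deposited scale had 6 and 2. Poly-A control scaling put 34 past 1.5-fold and 7 past 2-fold, and medians of 0.69 for all 43 genes, 0.68 for the core and 0.82 for the regulatory particle. Both control scalings shift every gene alike, with all-gene medians of 0.27 (hybridisation) and 0.48 (poly-A). The share of all genes past these limits under them was not counted, so these counts are not a result about the proteasome genes. The count at least 2-fold higher was 1 with the 75th percentile floor, which Psmc3ip missed, 1 without the matches that are no proteasome gene, and 0 over the 26S subunits, which held 3 at least 1.5-fold higher. None was at least 2-fold lower under any setting. The core minus regulatory median was -0.05 with quantile normalization and with loess, -0.13 with 64 units added and -0.15 with the probe sets of several symbols. The other settings left it at -0.14, and those that shift all genes alike, or leave the subunits as they are, cannot move it. Also tried were no floor, the mean over probe sets and suffixed probe sets removed. Chosen after seeing the data were the probe sets of several symbols counted as core members, and the lowest probe set per gene, which put 29 of 30 subunits above 0. No paired analysis was possible because each group has 1 array of pooled RNA. The pooling hides differences between rats, and a scale that moves all genes cannot be told from a change in total RNA.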
